A study of Rattus norvegicus with 16 samples.

Results

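The chemokine axis examined here consists of 3 genes, Cxcr4, Cxcl12 and Ackr3, and of the 7 probe sets that the platform annotation gives to exactly 1 of these symbols, out of 31042 probe sets other than controls. On the array, 14217 genes had a probe set with 1 symbol. Cxcr4 had 3 probe sets, Cxcl12 3 and Ackr3 1, and all 7 passed the minimum mean signal of 300 over the arrays compared. The genes were picked with their lower signals after 48 h of agonist already known, so the 48 h differences of Cxcr4, Cxcl12 and Ackr3 are described without a test. The cells were rat levator ani satellite cells at passage 5, taken from an androgen-dependent pelvic muscle, and the labels do not say how many animals or cultures they came from. They were grown in medium with 10% serum, which was replaced by charcoal-stripped serum during treatment in every group. The agonist, called NARA in the labels, is a nonsteroidal ligand of the androgen receptor and was given at 10 nM. The groups were NARA at 4 h, vehicle (0.2% DMSO) at 4 h, NARA at 48 h and vehicle at 48 h, with 4 arrays each. The authors left out 3 of the 16 arrays, and the comparisons rest on the remaining 13, namely 2 NARA and 4 vehicle arrays at 4 h, and 4 NARA and 3 vehicle arrays at 48 h. Sample titles speak of biological replicates but name no separate animals or cultures, so the p-values cover only how far these samples differ, and that spread may be technical.

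CXCL12, also called stromal cell-derived factor, is a chemokine secreted by mesenchymal cells that draws in cells carrying CXCR4, a receptor coupled to inhibitory G proteins. ACKR3 binds the same ligand, is not known to signal through G proteins in the usual way, and removes CXCL12 from the surroundings by taking it up. In muscle the axis is known for guiding migrating myogenic progenitors in the embryo, and CXCR4 is used as a surface marker of satellite cells in the mouse.

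The 13 arrays correlated with each other at 0.930 to 0.956 over probe sets, and their median signals lay between 539 and 613. NARA 4 h replicates 1 and 4, both left out, correlated with those arrays at only 0.645 to 0.673. The summed signal of 11 measured liver genes was 1366430 and 1688510 in that pair, against 3666 to 5161 over the 13 arrays. Vehicle 48 h replicate 1, also left out, correlated at 0.922 to 0.933. As for the labelled cell type, 10 of 15 satellite cell and myoblast markers had a probe set and 8 had a mean signal of at least 300; Pax7 and Myf5 were not matched, and Myod1 averaged 83.9, below the minimum. The cells had high signals for fibroblast collagens such as Col1a2, with a mean of 134203, and 9 of 10 fibroblast markers reached the minimum. Over the same 13 arrays, 7 of the 11 measured liver genes also reached it, so reaching the minimum does not by itself show expression.

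Cxcr4, the signalling receptor of the axis, was lower after 48 h of NARA at each of its probe sets. Probe set 1389244_x_at, the brightest, had signals of 475, 756, 788 and 341 in the 4 NARA arrays, against 5117, 4462 and 5191 in the 3 vehicle arrays. Probe set 1370097_a_at had 567, 259.9, 420.5 and 436 in NARA, against 3634, 3846 and 4184 in vehicle. Every NARA array was thus far below every vehicle array at these probe sets, and the spread within each group was small beside the gap. Probe set 1373661_a_at had 95.6, 158, 747 and 96.0 in NARA, against 2669, 2431 and 2467 in vehicle. Here NARA replicate 3 stood well above the other NARA arrays and still below all vehicle arrays. The mean signal of NARA arrays was 10.8%, 10.9% and 12.0% of the vehicle mean at 1370097_a_at, 1373661_a_at and 1389244_x_at. At 1373661_a_at it was 4.63% without NARA replicate 3, where the other NARA arrays averaged 117.

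On the log2(signal + 50) scale, which understates the change of dim probe sets, the Cxcr4 differences at 48 h were -3.10 (SE 0.234) for 1370097_a_at, -3.40 (SE 0.473) for 1373661_a_at and -3.02 (SE 0.275) for 1389244_x_at. In order from the most negative, 1373661_a_at, 1370097_a_at and 1389244_x_at were at positions 1, 2 and 4 among 20904 probe sets tested. The annotation lists the same source sequence for 1373661_a_at and 1389244_x_at, so this pair may share probes and is no independent repeat. Array names ending in _x_at mark probe sets whose probes may also match other sequences. These samples are bulk RNA, in which fewer cells of a type and less RNA per cell cannot be told apart.

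Cxcl12, the ligand gene, was also lower in NARA at 48 h, by less than its receptor. Its brightest probe set, 1369633_at, had signals of 4212, 4907, 4241 and 5108 in NARA arrays, against 8061, 7648 and 8300.4 in vehicle arrays. The middle probe set, 1388583_at, had 1379, 1268, 1456 and 1360 in NARA, against 2508, 2893 and 2292 in vehicle. No NARA array reached any vehicle array at either of these. The dimmest, 1387655_at, averaged 454 ± 121 (SD, n = 4) after NARA, against 964 ± 159 (SD, n = 3) after vehicle, again without overlap. The log2 differences were -0.79 (SE 0.111), -0.88 (SE 0.136) and -1.03 (SE 0.253) for 1369633_at, 1388583_at and 1387655_at, which correspond to 1.73-fold, 1.84-fold and 2.05-fold lower values on the log2(signal + 50) scale.

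Ackr3, the scavenging receptor, was measured by 1 probe set, 1367940_at. It had signals of 512, 644, 307 and 482 in NARA arrays at 48 h, against 1037, 927 and 798 in vehicle arrays. The NARA arrays lay below all vehicle arrays, with a log2 difference of -0.89 (SE 0.217). The NARA mean was 52.8% of the vehicle mean. Over the axis, the arrays did not overlap for 7 of 7 probe sets, all lower in NARA. Of all probe sets tested, 7.53% were lower in NARA at 48 h without overlap, a share printed for scale only, since the genes were chosen on this contrast. Vehicle 48 h replicate 1, the array left out of that group, had signals of 6185 for Cxcr4 (1389244_x_at), 8629 for Cxcl12 (1369633_at) and 807 for Ackr3.

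**Figure D1:**
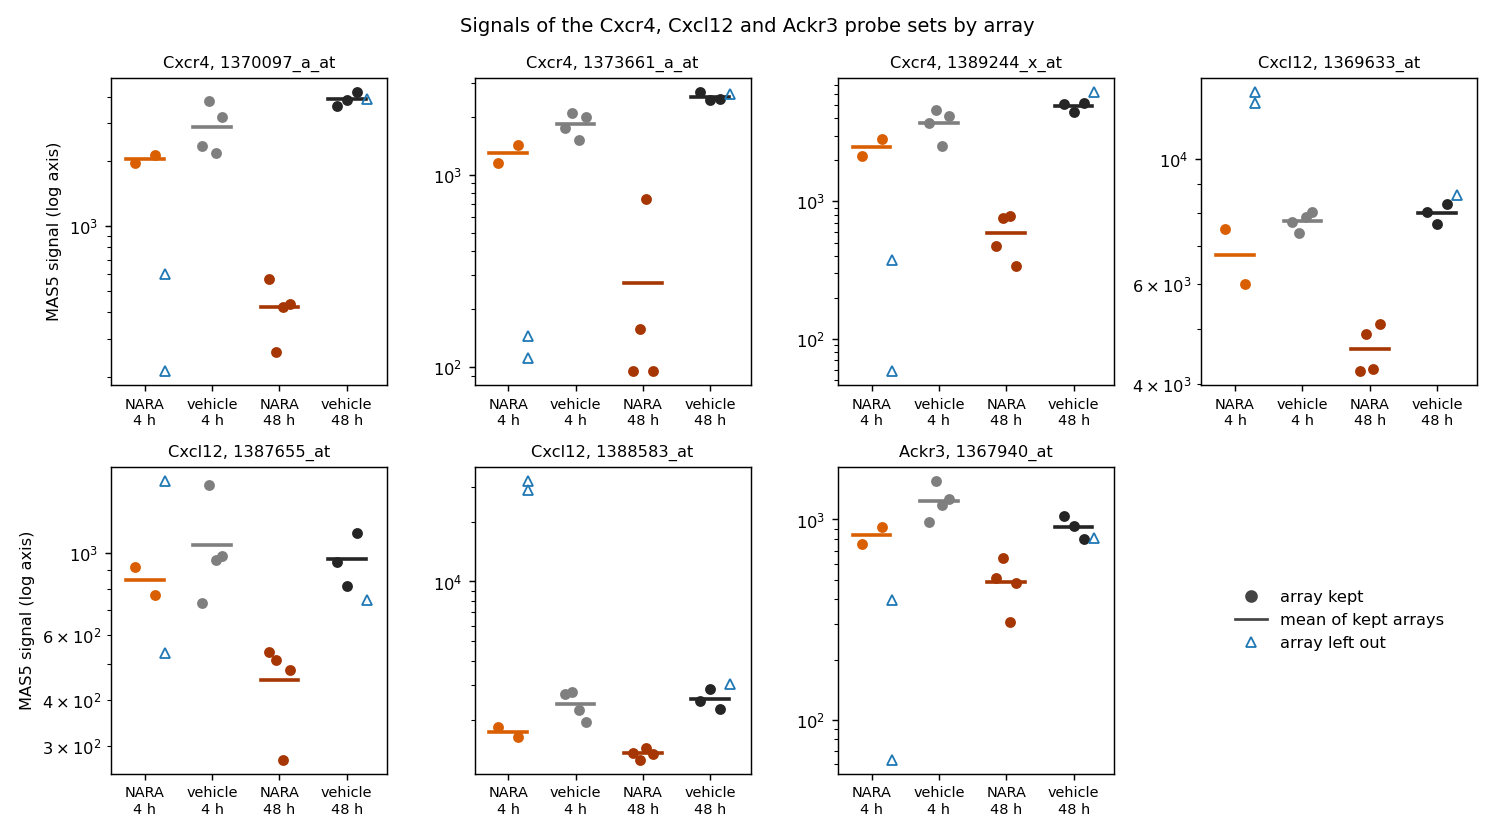
Each panel plots the MAS5 signal of 1 probe set on a log axis, by group, with filled circles for the 13 arrays kept, horizontal bars for their means and open triangles for the 3 arrays left out. In all 7 panels the NARA 48 h circles lie below the vehicle 48 h circles, and the Cxcr4 panels show the widest gap, with NARA means at 10.8% to 12.0% of vehicle means.

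The summed markers of leukocytes, the cells in which CXCR4 is best known, overlapped between NARA and vehicle at 48 h. Of 10 leukocyte markers, all on the array, 5 reached a mean signal of 300, and Ptprc, which encodes the pan-leukocyte surface protein CD45, averaged 81.4. The summed signal of the list ranged from 3778 to 5040.4 in NARA 48 h arrays, against 3539 to 5317 in vehicle 48 h arrays. For 8 measured endothelial markers, of which 5 reached the minimum, the sum ranged from 4576 to 6009 in NARA, against 4083 to 5429 in vehicle. No marker of either list was listed at 0. The satellite cell list summed to 11343 to 14129 in NARA 48 h arrays, against 13542 to 17695 in vehicle 48 h arrays. Sdc4, which also stands in this list, had the highest mean of it at 8548 and passed as lower (-0.72). Ncam1 at 0.63, Itga7 at 0.95, Calcr at 0.27, Myog at 0.18 and Cdh15 at 0.05 did not pass. Nor did Des at -0.07 and Vcam1 at -0.17, and Chrna1 and Myod1 were too dim to be tested. The fibroblast list summed to 393023 to 491582 in NARA, against 383984 to 474037 in vehicle. Within the fibroblast list, Lum, with a log2 difference of -1.06, and Pdgfra, with -0.75, passed the threshold as lower. Col3a1 at 0.39, Col1a2 at 0.23 and Col1a1 at 0.04 did not pass. Neither did Fbn1 at -0.08, Thy1 at -0.27, Dcn at -0.56 and Postn at -0.59, and Tcf21 was too dim to be tested. The part of marker levels in the Cxcr4, Cxcl12 and Ackr3 results was not tested.

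The sequences just upstream of the 3 genes are shown because the genes were lower together at 48 h. Each is the 250 bases before the RefSeq gene start in build GRCr8, on the gene's strand, with matches to 4 motifs in capitals: the palindromic site of the factor NRF1, the GC box GGGCGG, the hypoxia response core GCGTG and the TATA box TATAAA, on either strand.
Cxcr4, chr13:42634289-42634538, minus strand: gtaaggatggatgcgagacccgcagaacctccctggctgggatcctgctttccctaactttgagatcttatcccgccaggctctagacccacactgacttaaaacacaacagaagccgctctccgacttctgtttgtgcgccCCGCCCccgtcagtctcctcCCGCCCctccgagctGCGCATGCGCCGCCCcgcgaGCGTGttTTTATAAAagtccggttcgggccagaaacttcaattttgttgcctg
Cxcl12, chr4:152060531-152060780, plus strand: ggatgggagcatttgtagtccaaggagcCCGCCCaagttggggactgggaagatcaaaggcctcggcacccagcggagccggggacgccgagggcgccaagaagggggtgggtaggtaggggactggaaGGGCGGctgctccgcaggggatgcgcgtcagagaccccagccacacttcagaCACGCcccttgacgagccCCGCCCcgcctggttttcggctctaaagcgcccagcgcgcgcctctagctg
Ackr3, chr9:98247104-98247353, plus strand: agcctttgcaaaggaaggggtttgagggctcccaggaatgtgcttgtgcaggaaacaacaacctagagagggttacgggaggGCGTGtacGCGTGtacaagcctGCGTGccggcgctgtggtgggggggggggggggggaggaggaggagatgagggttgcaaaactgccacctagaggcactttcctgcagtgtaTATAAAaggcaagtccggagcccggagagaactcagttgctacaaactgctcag
The window before Cxcr4 held 1 NRF1 site at -73 to -64, where -1 is the base just before the gene, while 0.762% of 33469 rat promoter windows of this length held that site. It also held 3 GC boxes, of which the one at -64 to -59 shares a base with the NRF1 site, 1 GCGTG core, and 2 overlapping TATA matches between -46 and -39. The window before Cxcl12 held 3 GC boxes and 1 GCGTG core and no TATAAA. The window before Ackr3 held 3 GCGTG cores and 1 TATAAA at -54 to -49 and no GC box. GGGCGG was present in 30.5% of all windows, GCGTG in 25.9% and TATAAA in 12.9%. The palindromic androgen receptor element, its 5′ arm AGAACA alone, the hypoxia core ACGTG and the EGR site GCGNGGGCG matched none of the 3 windows, and 0.012%, 17.5%, 16.6% and 4.29% of all windows. GC content was 57.6% for Cxcr4, 67.6% for Cxcl12 and 58% for Ackr3, against a median of 51.2% over all windows. A match is a description of letters, and binding was not measured.

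The comparison at 4 h asked whether the axis already differed early, in arrays other than the 48 h arrays whose contrast the genes were chosen on. The genes were chosen with earlier results of these data known, so the 4 h values are no independent check. All 7 probe sets had a log2 difference below 0, and none passed the threshold of 0.05 in limma after Benjamini-Hochberg adjustment over 20904 probe sets. Of all probe sets tested, 48.5% had a difference below 0 at 4 h, and 0% passed. With unadjusted limma values, 1 of the 7 had p below 0.05, as had 4.75% of all probe sets. The 7 values are not independent, since several probe sets measure the same gene in the same arrays.

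Cxcr4 had signals of 2138 and 2834 in the 2 NARA 4 h arrays at 1389244_x_at, against 3689, 4583, 2510.1 and 4146 in the 4 vehicle 4 h arrays. One vehicle array, replicate 3, lay between the NARA arrays, so the groups overlapped. At 1370097_a_at the signals were 1967 and 2132 in NARA, against 2352, 3823, 2182 and 3208 in vehicle, with no overlap and with vehicle replicate 3 close to the NARA arrays. At 1373661_a_at they were 1147 and 1426 in NARA, against 1754, 2088, 1513 and 1987 in vehicle, again without overlap. The log2 differences of Cxcr4 were -0.56, -0.45 and -0.49 for 1389244_x_at, 1370097_a_at and 1373661_a_at, each with adjusted p = 1.00 in limma. Their 95% intervals ran from -1.24 to 0.13, from -1.03 to 0.13 and from -1.67 to 0.68, so both no change and a more than 2-fold lower level lay within them.

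Cxcl12 had signals of 7516 and 5992 in NARA 4 h arrays at its brightest probe set 1369633_at, against 7719, 7395, 7885 and 8044 in vehicle 4 h arrays. NARA replicate 2 lay within the vehicle range and replicate 3 below it. The log2 difference was -0.21 (SE 0.126, adjusted p = 1.00 in limma). At 1388583_at the arrays did not overlap, with 1855 and 1644 in NARA against 2702, 2795, 2249 and 1971 in vehicle. That probe set had the smallest p of the 7, with a log2 difference of -0.45 (SE 0.155, unadjusted p = 0.0136, adjusted p = 0.893 in limma) and a 95% interval from -0.79 to -0.11. At 1387655_at the NARA arrays, at 918 and 768, lay within the vehicle range of 732 to 1531.

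Ackr3 had signals of 755 and 921 in NARA 4 h arrays, against 968, 1555, 1175 and 1263 in vehicle 4 h arrays. The arrays did not overlap, and the log2 difference was -0.53 (SE 0.246, adjusted p = 1.00 in limma), with a 95% interval from -1.06 to 0.01. Over the axis, 4 of 7 probe sets were lower in NARA at 4 h without overlap, against 6.96% of all probe sets tested. That share is given for scale only, since the genes were chosen with earlier results known. With only 2 NARA arrays at 4 h, leaving out replicate 2 or replicate 3 moved the Cxcl12 difference at 1369633_at between -0.37 and -0.05, and with all 16 arrays it was 0.26.

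**Figure D2:**
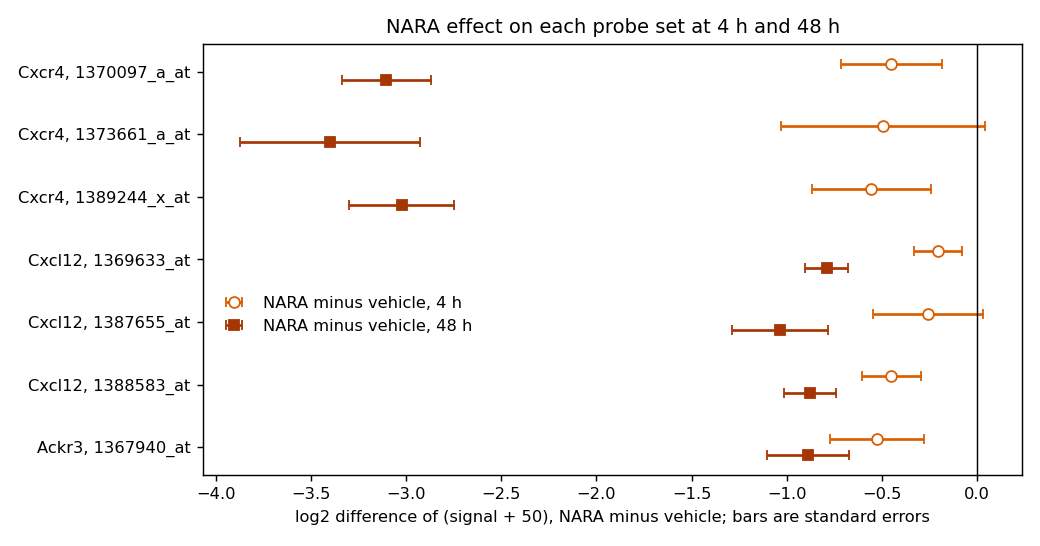
The plot gives the log2 difference of (signal + 50), NARA minus vehicle, for each probe set, with open circles for 4 h, filled squares for 48 h and bars for standard errors from limma. The 3 Cxcr4 probe sets lie between -3.40 and -3.02 at 48 h, while all 7 probe sets lie between -0.56 and -0.21 at 4 h.

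Set side by side, the NARA effect on Cxcr4 was more negative at 48 h than at 4 h, with differences between the effects of -2.65 (SE 0.354), -2.90 (SE 0.714) and -2.47 (SE 0.415) log2 units at 1370097_a_at, 1373661_a_at and 1389244_x_at. These differences between effects hold the contrast on which Cxcr4 was chosen and are therefore given without a test. For Cxcl12 the differences between effects were -0.58 (SE 0.168) at 1369633_at, -0.43 (SE 0.206) at 1388583_at and -0.78 (SE 0.383) at 1387655_at. For Ackr3 it was -0.36 (SE 0.327), close to its own standard error.

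The order of the 4 groups was the same at the 3 Cxcr4 probe sets, with NARA 48 h lowest, then NARA 4 h, vehicle 4 h and vehicle 48 h. At 1389244_x_at the means were 590.0 ± 218 (SD, n = 4) in NARA at 48 h, 2486 ± 493 (SD, n = 2) in NARA at 4 h, 3732 ± 893 (SD, n = 4) in vehicle at 4 h and 4923 ± 401 (SD, n = 3) in vehicle at 48 h. Of the neighbours in this order at 1389244_x_at, only NARA 48 h and NARA 4 h had arrays that did not overlap. At 1370097_a_at, NARA 4 h and vehicle 4 h did not overlap either, and at 1373661_a_at no neighbours overlapped. Within vehicle, Cxcr4 was 1.32 to 1.37 times as high at 48 h as at 4 h by mean signals, and at 1373661_a_at alone the vehicle groups did not overlap. Within NARA, the 48 h mean was 20.5% to 23.7% of the 4 h mean. The lower Cxcr4 ratio at 48 h thus comprised both a lower NARA level and a higher vehicle level than at 4 h.

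In vehicle, Cxcl12 at 1369633_at averaged 8003 ± 330 (SD, n = 3) at 48 h, against 7761 ± 278 (SD, n = 4) at 4 h, with overlapping arrays. In NARA the same probe set had 4617 ± 458 (SD, n = 4) at 48 h, against 6754 ± 1078 (SD, n = 2) at 4 h. In vehicle, Ackr3 averaged 921 ± 120 (SD, n = 3) at 48 h, against 1240.3 ± 243 (SD, n = 4) at 4 h, with overlapping arrays. In NARA, Ackr3 had 486 ± 139 (SD, n = 4) at 48 h, against 838 ± 118 (SD, n = 2) at 4 h. Within NARA, 7 of 7 probe sets were lower at 48 h than at 4 h without overlap, as were 10.9% of all probe sets tested, a share given for scale only, since the choice of genes rests on the same NARA 48 h arrays. Within vehicle, 0 of 7 were lower at 48 h without overlap, as were 4.62% of all, and 1 of 7 (1373661_a_at) was higher, as were 4.28% of all.

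Across the arrays, Cxcr4 and Cxcl12 varied together between groups more than within them. Over the 13 arrays, Pearson's r between 1389244_x_at and 1369633_at was 0.899 and Spearman's rank correlation 0.802. After each group's mean was subtracted, Pearson's r was -0.39. Over all Cxcr4 and Cxcl12 pairs, the values within groups ran from -0.56 (1373661_a_at with 1387655_at) to 0.37 (1370097_a_at with 1387655_at). For Ackr3 the correlation with 1389244_x_at was 0.805, and 0.06 after group means were subtracted. With Cxcl12 at 1387655_at, Ackr3 still correlated at 0.72 within groups. The genes were chosen for lower signals in NARA at 48 h, so high values over the 13 arrays follow from that choice. The points share arrays and the scaling of each array, and these values are descriptions. The Cxcr4 probe sets 1370097_a_at and 1389244_x_at correlated at 0.948 over the 13 arrays and at 0.03 within groups. Within groups, 1373661_a_at correlated at 0.67 with 1389244_x_at, which lists the same source sequence, and at 0.02 with 1370097_a_at.

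Genes that act around the axis were taken from 7 lists, which held 179 distinct genes besides the 3 members, of which 155 had a probe set with 1 symbol and 129 passed the minimum signal. In limma at 48 h, 9 of the 129 passed the threshold by their brightest probe set, 4 higher and 5 lower in NARA, which is 6.98%. Of all 11286 genes tested, 3.21% passed, 1.71% higher and 1.5% lower. The lists were written with earlier results of these data known, including those of Sdc4, Egr1 and Ccl2, so this difference in share is no independent evidence about them. The median log2 difference was -0.10 over the listed genes and -0.01 over all genes.

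Of 7 measured ligands and partners of the axis receptors, 1 passed. Penk, which encodes the precursor of enkephalins, opioid peptides that ACKR3 also binds and scavenges, rose to 28175 ± 1174 (SD, n = 4) in NARA at 48 h, against 14888 ± 2283 (SD, n = 3) in vehicle, a 1.90-fold change (adjusted p = 0.00857 in limma). At 4 h its log2 difference was -0.27, and the change between the effects, 1.20, did not pass (adjusted p = 0.0944 in limma). Mif, a cytokine that also binds CXCR4, had a high signal in both groups, at 28842 ± 1571 in NARA and 31308 ± 1754 in vehicle, and did not pass. Adm, the precursor of adrenomedullin, another peptide that ACKR3 removes, had a log2 difference of 0.22 (SE 0.145) and did not pass.

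CXCL12 is held at cell surfaces by heparan sulfate and is trimmed by proteases. Of 17 measured genes of this kind, 2 fell and 0 rose at 48 h, while 1.5% of all genes fell and 1.71% rose. Both that fell are heparan sulfate carriers of the cell surface. The carriers Sdc1 (-0.56), Gpc4 (-0.23), Sdc3 (-0.21) and Gpc1 (0.05) did not pass. Gpc6, a glypican, fell to 4454 ± 510.5 in NARA at 48 h, against 7754 ± 973 in vehicle, 1.73-fold (adjusted p = 0.00495 in limma). Another Gpc6 probe set, 1396736_at, also fell, by 0.74 log2 units, while those at 1385876_at (-0.63) and 1378748_at (-0.34) did not pass. Sdc4, a syndecan, fell to 6362 ± 800.2, against 10613 ± 2169, 1.65-fold (adjusted p = 0.0305 in limma). Sdc2, a further syndecan, had -0.38 at its brightest probe set, which did not pass, and -0.55 at 1370166_at, which did (adjusted p = 0.00903 in limma). A further Sdc2 probe set, 1370167_at, lay at -0.09 and did not pass (adjusted p = 0.706 in limma). Dpp4, the peptidase that inactivates CXCL12 by cutting its amino end, had 2580.3 ± 267 in NARA against 1874 ± 351 in vehicle, with adjusted p = 0.106 in limma. The matrix metalloproteinases Mmp2 and Mmp14, which can also cleave CXCL12, had log2 differences of 0.06 each.

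Of 22 measured genes of receptor desensitisation and trafficking, 1 rose and 1 fell. Both encode regulators of G protein signalling, proteins that switch off G proteins. Whether the Rgs2 product acts on the G proteins below CXCR4 was not tested. Rgs2 rose to 3054 ± 228 (SD, n = 4) in NARA at 48 h, against 987 ± 177 (SD, n = 3) in vehicle, 3.02-fold (adjusted p = 0.000180 in limma). Its other probe set, 1368144_at, rose by 1.60 log2 units. At 4 h Rgs2 already had the smallest p of this list, at 1568 ± 163 (SD, n = 2) in NARA against 861 ± 133 (SD, n = 4) in vehicle, but did not pass (adjusted p = 0.286 in limma). Rgs10, which acts on inhibitory G proteins, fell to 5742 ± 560.1, against 8603 ± 162 in vehicle at 48 h, 1.50-fold (adjusted p = 0.00884 in limma). The arrestin genes Arrb1 and Arrb2, whose products carry activated receptors away from the membrane, had log2 differences of 0.26 (SE 0.204) and -1.04 (SE 0.419) and did not pass.

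None of 35 measured signalling genes below CXCR4 passed at 48 h in limma, and 9 had an unadjusted p below 0.05, as had 17.1% of all genes. With the lowest p values, Gnai1, an inhibitory G protein subunit, had 0.62 (adjusted p = 0.0633), the kinase gene Src had -0.57 (adjusted p = 0.114) and Vav3, a guanine nucleotide exchange factor, had -0.48 (adjusted p = 0.136). Gnai1 passed with a minimum signal of 1000, with a trended prior, with vehicle 48 h replicate 1 put back and without NARA 48 h replicate 2. Src and Vav3 passed with a minimum signal of 1000 (adjusted p = 0.0366 and 0.0482 in limma).

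Of 24 measured transcription factors and related genes listed, from general knowledge, as possible regulators of Cxcr4 or Cxcl12, 1 rose and 2 fell. Of the 24, 18 had a log2 difference below 0, with a median of -0.26, against -0.01 over all genes. This list too was written with earlier results known, including that of Egr1, so its lean is no independent evidence. Vhl, part of the ubiquitin ligase that removes hypoxia-inducible factors and a known restraint on CXCR4 in human kidney cancer cells, rose 1.31-fold, to 6649 ± 145 against 5063 ± 134 (adjusted p = 0.0387 in limma). Egr1, an immediate early transcription factor, fell to 11763 ± 1758 in NARA, against 18941 ± 834 in vehicle, 1.62-fold (adjusted p = 0.0311). Prrx1, a homeobox factor of mesenchymal cells, fell to 10823 ± 1458, against 17503 ± 1356, also 1.62-fold (adjusted p = 0.0313), and its other probe set, 1375485_at, lay at -0.82 and did not pass. Hif1a, the hypoxia-inducible subunit, had 24893 ± 1716 in NARA against 30918 ± 2380.4 in vehicle and did not pass (adjusted p = 0.201 in limma). Nrf1, whose motif lies in the Cxcr4 window, had -0.27 (SE 0.250).

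Of 22 other chemokine receptors listed, 16 had a probe set, 7 passed the minimum signal and 0 passed limma's threshold at 48 h, while 1 had an unadjusted p below 0.05. That was Ackr4, another scavenging receptor, with 195 ± 142 in NARA against 418 ± 118 in vehicle (adjusted p = 0.190). Cxcr5 and Cxcr3, chemokine receptors of lymphocytes, had log2 differences of 0.38 and 0.30 and did not pass. Of 18 measured chemokine ligands besides Cxcl12, 1 passed. Ccl2, a chemokine for monocytes, rose to 1906 ± 158 in NARA, against 1104 ± 94.6 in vehicle, 1.70-fold (adjusted p = 0.0145 in limma). Ccl2 thus changed in the direction opposite to the Cxcl12 difference. Cxcl16 had a log2 difference of -0.44 (SE 0.164) and Cxcl1 of -0.45 (SE 0.244), neither past the threshold.

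The calls of the listed genes differed in how far they depended on single arrays. Rgs2, Gpc6 and Rgs10 passed in 13 of 13 fits that each left out 1 array, Penk in 12, Ccl2 in 11, Sdc4 in 8, Prrx1 in 7, Egr1 in 6 and Vhl in 1. Of 11 other alternatives, Rgs2 and Ccl2 passed in 10, Gpc6, Rgs10 and Penk in 9, Prrx1 in 8, Sdc4 and Egr1 in 7 and Vhl in 5, and none of the 9 passed with all 16 arrays. Without vehicle 48 h replicate 3, 1 listed gene passed higher and 2 lower, and without vehicle 48 h replicate 2 there were 2 higher and 2 lower. The number lower was also 2 without NARA 48 h replicate 1, 2 or 3.

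**Figure D3:**
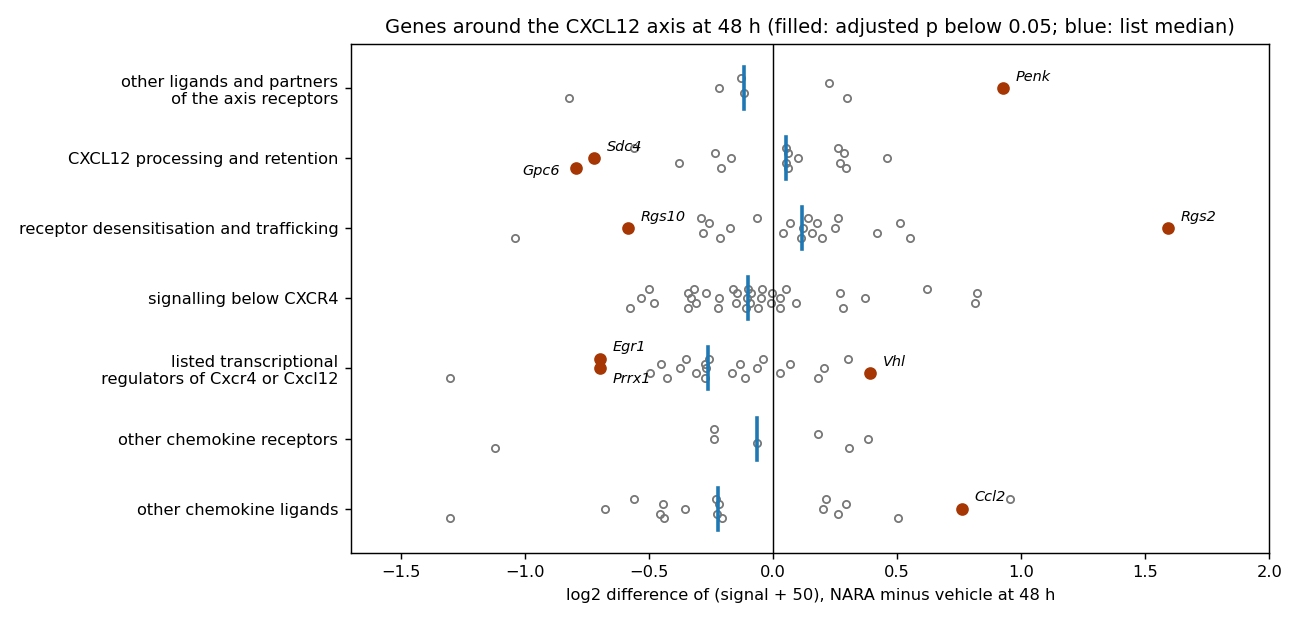
Each circle is the log2 difference of (signal + 50), NARA minus vehicle at 48 h, of 1 listed gene by its brightest probe set, by list; filled circles passed the threshold in limma and blue bars are list medians. Penk, Rgs2, Vhl and Ccl2 lie to the right of 0, and Gpc6, Sdc4, Rgs10, Egr1 and Prrx1 to the left.

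At 4 h, 0 of the 129 listed genes passed in limma, as did 0% of all 11286 genes, and 6 of the 129 had an unadjusted p below 0.05, as had 4.28% of all genes. Cxcl11, a chemokine that also binds ACKR3, had 230 ± 186 (SD, n = 2) in NARA against 604 ± 136 (SD, n = 4) in vehicle (adjusted p = 0.625). Its log2 difference of -1.38 became -2.11 without NARA 4 h replicate 3 and -0.65 without NARA 4 h replicate 2. The next of its list by p were Penk at -0.27 and Cd4, a coreceptor beside CXCR4 in human immunodeficiency virus entry, at -0.32. Among the heparan sulfate and protease genes, the smallest p values belonged to Sdc2 at -0.31, the glypican gene Gpc4 at -0.38 and Gpc6 at -0.20. After Rgs2, the trafficking list was led by Vps4a at -0.30 and the receptor kinase gene Grk2 at -0.37. The signalling list was led by the kinase gene Rock1 at 0.33, Elmo1 at 0.81 and the adhesion adaptor gene Pxn at 0.17. The regulators with the smallest p were Nfkb1 at -0.30, Hif1a at -0.28 and Klf4 at -0.35. Of the other receptors these were Cx3cr1 at 0.80, Cxcr5 at 0.27 and Ccr3 at 0.25, and of the ligands, after Cxcl11, Ccl4 at -0.41 and Ppbp at 1.15. None of these log2 differences at 4 h passed.

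The probe sets whose pattern over the 13 arrays was most like Cxcr4 at 1389244_x_at were sought among 15457 others with 1 symbol. The highest Pearson correlations belonged to Socs5 (0.980), an inhibitor of cytokine signalling, Tpbg (0.979), a membrane glycoprotein, Sting1 (0.973), an adaptor of cytosolic DNA sensing, and Il33 (0.971), an alarmin cytokine. Marcks (0.960), an actin-binding substrate of protein kinase C, the Cxcr4 probe set 1373661_a_at (0.960), Fam171a1 (0.959) and Cdh2 (0.959), the N-cadherin gene, followed. All of these were lower in NARA at 48 h, the other genes by 0.76 (Tpbg) to 1.75 (Il33) log2 units, less than Cxcr4. Within groups, after subtraction of group means, their correlations with Cxcr4 ranged from 0.452 (Fam171a1) to 0.762 (Sting1). Since these probe sets were picked for high correlation over the same arrays, positive values within groups follow in part from that choice. The most negative correlations belonged to Lmo4 (-0.974), Srpx (-0.964), Sytl2 (-0.963) and Kctd14 (-0.959), which were higher in NARA at 48 h by 0.87 (Sytl2) to 1.69 (Srpx) log2 units.

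For Cxcl12 at 1369633_at the closest were Egr2 (0.966), an immediate early transcription factor, Ptgs2 (0.961), the inducible cyclooxygenase gene, Slc6a6 (0.946), the taurine transporter gene, and the ubiquitin ligase gene Pja1 (0.943). Socs5 (0.940), Cdh11 (0.939), a cadherin of mesenchymal cells, Cnrip1 (0.938) and Srpx2 (0.937) completed the list. Socs5 was the only gene named for both Cxcr4 and Cxcl12, and within groups it correlated at 0.726 with Cxcr4 and at -0.17 with Cxcl12. The lowest were Eps15 (-0.956), an endocytic adaptor gene, Rhob (-0.954), Lrrn3 (-0.952) and the cochaperone gene Dnaja1 (-0.952). With 13 arrays in 4 groups, these correlations mostly follow the NARA 48 h arrays, and no p is given.

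**Figure D4:**
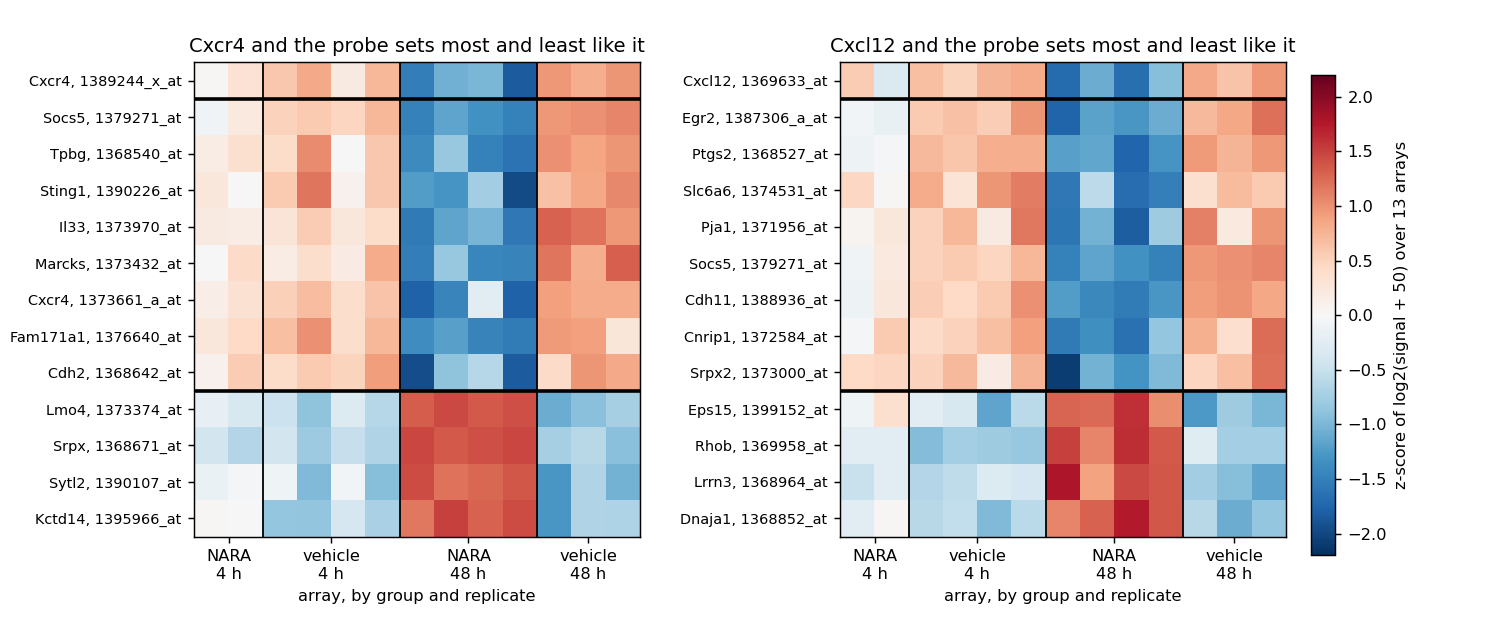
The heat maps show z-scores of log2(signal + 50) over the 13 arrays for Cxcr4 (left) and Cxcl12 (right) in the top row, the 8 probe sets most like each below it and the 4 least like at the bottom; columns are arrays by group. NARA 48 h arrays are blue (low) in the upper rows and red (high) in the lower 4 rows, while the remaining groups differ less.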

How the data were processed

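RNA of 16 samples was hybridised to Affymetrix Rat Genome 230 2.0 arrays, 1 per sample, from 5 µg of total RNA per the labels' protocols. The deposited table gives 1 intensity per probe set and array, a linear signal that the submitters' processing notes credit to MAS5. The authors scaled each array to a trimmed mean of 1500 and left out 3 arrays, per the series' design text. Detection calls were not used here. From the deposited table of 31099 probe sets, 57 controls were set aside, and genes were named through the platform annotation. Signals were transformed as log2(signal + 50), and the 20904 probe sets whose signal averaged 300 or more in the 13 arrays were fitted by group means with limma 3.58.1 (lmFit, eBayes) in R 4.3.3. The fit left 9 residual degrees of freedom. The threshold was a two-sided Benjamini-Hochberg adjusted p below 0.05 over all of them. A gene was represented by its brightest probe set. The fit was tested on simulated data. Same-numbered NARA and vehicle samples of the same time did not deviate together, with correlations of deviations between -0.04 and 0.04. At 4 h this check is weak, since the 2 NARA arrays deviate from their mean by equal and opposite amounts.

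Each probe set of the members was named; of each list, genes past the threshold or, with none, the 3 of smallest p; and the 8 most and 4 least correlated probe sets. Some further list genes were named at 48 h after their values were seen. These were Mif, Adm, Dpp4, Mmp2, Mmp14, Sdc1, Sdc2, Sdc3, Gpc1, Gpc4, Arrb1, Arrb2, Hif1a, Nrf1, Cxcl16 and Cxcl1. The members and lists were chosen with earlier results of these data known. Alternatives were all 16 or 14 arrays, a fit of each time alone, an offset of 1 or 200, a signal minimum of none or 1000, quantile and median scaling, a trended robust prior, the replicate block and leaving out each array.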

Additional observations from a re-analysis of the deposited data

Results flagged for a closer look

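Cxcr4 at 1373661_a_at had 1 array far from the others of its group: NARA 48 h replicate 3, at a signal of 747, against 95.6, 96.0 and 158 in the other NARA 48 h arrays. The gap to the nearest array made up 0.903 of the group's range. How often such a gap arises by chance was not computed. The value of replicate 3 was the only one flagged among 14 combinations of probe set and group searched. Without it, the 48 h difference at this probe set was -3.97 log2 units, against -3.40 with it. At 1389244_x_at, which lists the same source sequence, replicate 3 was at 788 and replicate 2 at 756.

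The 2 NARA 4 h arrays left out by the authors carried more Cxcl12 signal than any vehicle 4 h array. At 1388583_at they had 28787 and 31982, against at most 2795 in vehicle 4 h arrays, and at 1369633_at 12560.4 and 13089, against at most 8044. At 1387655_at they had 536 and 1566, on either side of the vehicle mean. Both are the arrays with summed liver gene signals of 1366430 and 1688510. Their Cxcr4 signals at 1389244_x_at were 58.5 and 373, and their Ackr3 signals 395 and 63.2, below every vehicle 4 h array.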

How the results depend on the processing

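The lower values of the 7 probe sets at 48 h kept their direction under every alternative that gave a value, with Cxcr4 at 1389244_x_at between -3.18 and -2.74, Cxcl12 at 1369633_at between -0.84 and -0.75 and Ackr3 between -1.03 and -0.71. At 4 h no member passed under any alternative. With all 16 arrays, which adds the pair with liver signal, 4 h differences turned for Cxcl12 (0.26 at 1369633_at and 1.59 at 1388583_at), Cxcl11 (0.91), Sdc2 (0.47), Gpc4 (0.20), Grk2 (0.23), Pxn (-0.15), Cxcr5 (-0.11), Ccr3 (-0.26) and Ccl4 (0.10). At 4 h, Cxcr4 at 1389244_x_at was then at -2.33 and Ackr3 at -1.52. The difference between the 48 h and 4 h effects became 0.67 for Ackr3, -1.08 for Cxcl12 at 1369633_at and -0.77 for Cxcr4 at 1389244_x_at. Leaving out each array placed Ccr3 at 4 h between -0.083 (without vehicle 4 h replicate 4) and 0.56. Leaving out each array placed the difference between effects of Cxcl12 at 1369633_at between -0.75 and -0.42. Of the listed genes at 48 h, 0 higher and 0 lower passed with all 16 arrays, 2 lower with no signal minimum, 11 lower with a minimum of 1000, 8 lower with a trended robust prior and 0 lower with only the 48 h groups fitted. Leaving out each array gave 1 to 5 higher and 2 to 5 lower. With the replicate number as a block there were 2 higher and 3 lower. Same-numbered samples of the same time did not deviate together, so the block may not stand for a pairing. Over all probe sets at 48 h, 586 passed in the fit reported, 39 with all 16 arrays, 217 with only the 48 h groups, 312 with the block, 355 with no minimum, 1069 with a minimum of 1000 and 1098 with the trended prior. Ackr3 and Cxcl12 at 1387655_at give no value with a minimum of 1000. The causes were not tested. Signals near the dim end, such as Cxcr4 at 1373661_a_at in NARA, are limited by background, and no detection calls were used.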
